A study of Mus musculus with 6 samples.

Results

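The collapsin response mediator proteins (CRMPs) and the stathmins are 2 families of neuronal proteins that act on tubulin and microtubules, and their 9 genes were followed here in whole brains of mice on a diet with protease-treated porcine liver decomposition product (PLDP) and of mice on a control diet. The members are the 5 CRMP genes (Crmp1, Dpysl2, Dpysl3, Dpysl4 and Dpysl5) and the 4 stathmin genes (Stmn1, Stmn2, Stmn3 and Stmn4), taken by name through Ensembl identifiers from 60354 features in each count file. All 9 passed the filter on low counts and were among the 18580 features tested. The group was picked from an earlier view of the diet comparison in these same brains, in which Dpysl2 had one of the smallest p values. The diet differences of the members are therefore a description. How many members the fit over all features called is counted beside the share of all features, with nothing read from it, and p values are given for genes outside the group only.

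All mice were males of the strain C57BL/6NCrSlc that entered the study at 16 weeks of age. PLDP mice (mice 17, 22 and 26) were fed for 16 weeks on modified AIN-93M, of which PLDP made up 20%, and control mice (mice 2, 5 and 10) on modified AIN-93M of matched calories. All of them then went through behavioral tests over 17 days, during which the PLDP diet was not given, and brain RNA was taken on the following day. Each library is the polyadenylated RNA of 1 whole brain, so a change in a single region is averaged with the rest, and fewer cells of a type cannot be told apart from less RNA per cell.

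CRMPs are cytosolic proteins of axons and growth cones. CRMP2, the product of Dpysl2, binds tubulin dimers and promotes microtubule assembly and axon growth, and it was found as a mediator of growth cone collapse by semaphorin 3A. Phosphorylation by Cdk5 and then Gsk3b lowers its affinity for tubulin. Stathmins do the opposite: each sequesters tubulin dimers and promotes microtubule shrinkage, and phosphorylation of serines switches this off. Stmn1 is cytosolic, while Stmn2 (SCG10), Stmn3 (SCLIP) and Stmn4 (RB3) carry an additional start that is palmitoylated on cysteines and holds them on membranes.

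The stretches that carry these controls are shown as coding sequences of GENCODE M21 transcripts (build GRCm38), 5′ to 3′. The first set holds the Cdk5 and Gsk3b sites of CRMP2, the codons for threonines 509 and 514 and serines 518 and 522. Capitals mark codons for serine or threonine at the positions aligned with these 4 residues.
Dpysl2: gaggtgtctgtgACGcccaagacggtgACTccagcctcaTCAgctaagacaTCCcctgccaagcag
Crmp1: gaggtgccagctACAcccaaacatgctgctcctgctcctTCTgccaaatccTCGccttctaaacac
Dpysl4: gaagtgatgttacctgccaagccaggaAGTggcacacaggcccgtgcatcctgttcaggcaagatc
Dpysl5: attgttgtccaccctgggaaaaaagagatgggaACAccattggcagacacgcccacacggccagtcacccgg
Crmp1 kept 3 of the 4 positions, and Dpysl4 and Dpysl5 kept 1 each, in a part of the protein where the alignment of Dpysl5 needed gaps. Dpysl3 was not compared at these positions here.

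The second set covers serines 16, 25 and 38 of Stmn1, which protein kinase A, MAP kinases and cyclin-dependent kinases phosphorylate. Capitals mark codons for serine or threonine aligned with them.
Stmn1: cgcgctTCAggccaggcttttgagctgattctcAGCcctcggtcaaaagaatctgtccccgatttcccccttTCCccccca
Stmn2: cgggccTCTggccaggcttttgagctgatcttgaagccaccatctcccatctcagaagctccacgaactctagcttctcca
Stmn3: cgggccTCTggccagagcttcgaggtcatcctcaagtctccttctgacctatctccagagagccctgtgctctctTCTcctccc
Stmn4: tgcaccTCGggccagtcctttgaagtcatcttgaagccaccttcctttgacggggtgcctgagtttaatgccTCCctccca
The serine at position 16 was shared by all 4 stathmins, at position 50 of Stmn2 and Stmn3 and 60 of Stmn4. At the position aligned with serine 25, Stmn1 alone had a serine or threonine. Serines elsewhere in these stretches are left in small letters and were not compared.

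The third set gives the first 30 codons of the membrane-bound stathmins, with the codons for cysteine in capitals.
Stmn2: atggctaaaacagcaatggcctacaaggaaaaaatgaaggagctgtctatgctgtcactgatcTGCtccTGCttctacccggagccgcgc
Stmn3: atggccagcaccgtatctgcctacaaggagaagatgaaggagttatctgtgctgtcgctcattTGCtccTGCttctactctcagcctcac
Stmn4: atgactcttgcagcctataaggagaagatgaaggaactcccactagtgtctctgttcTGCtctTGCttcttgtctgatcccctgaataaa
The pair of cysteines lay at positions 22 and 24 in Stmn2 and Stmn3 and at 20 and 22 in Stmn4.

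The proteins translated from these transcripts had 564 to 572 residues for the CRMPs, 149 for Stmn1, and 179, 180 and 176 for Stmn2, Stmn3 and Stmn4. Dpysl2 was identical to Crmp1 in 76.2%, to Dpysl3 in 76.5%, to Dpysl4 in 75.9% and to Dpysl5 in 51.4% of aligned residues, so Dpysl5 is the distant relative among the CRMPs. Among the stathmins the identity was between 64.0% and 73.2%. The transcripts themselves were easier to tell apart. The longest run of bases shared by 2 members of the same family was 43, between Stmn1 and Stmn2, and 29 among the CRMPs, against reads of 150 bases.

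Stmn1 was the member with the most counts, between 9513 and 11716 per brain, and Dpysl5 the one with the fewest, between 715 and 849. Per brain, all features together had 18797061 to 23938729 counts, with PLDP mouse 26 lowest and PLDP mouse 22 highest. Levels of different genes were compared in CPM (read counts relative to an equal total per brain, corrected by TMM factors) per kilobase of the union of annotated exons. Stmn3 had 389 ± 22.7 CPM per kb and Stmn1 265 ± 12, followed by Stmn4 with 118 ± 6.58 and Stmn2 with 60.4 ± 3.42 (SD, n = 6 mice). The CRMPs were lower, with Dpysl2 at 39.0 ± 3.65, Crmp1 at 21.8 ± 0.40, Dpysl4 at 10.8 ± 0.32, Dpysl3 at 7.30 ± 0.46 and Dpysl5 at 5.18 ± 0.19 CPM per kb (SD, n = 6). No 2 neighbours in this order overlapped in their ranges over the 6 brains.

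The order depended on the length used. The exon union of Crmp1 covers 7046 bases, while its longest protein-coding transcript has 3051 bases. Per kilobase of the longest coding transcript, Stmn1 (481 ± 21.7) stood above Stmn3 (389 ± 22.7), and Crmp1 (50.3 ± 0.92) above Dpysl2 (39.0 ± 3.65) (SD, n = 6). Stmn4 (165 ± 9.26) and Stmn2 (163 ± 9.25) then overlapped. With either length every stathmin was above every CRMP, and Dpysl4, Dpysl3 and Dpysl5 came last in that order.

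**Figure D1:**
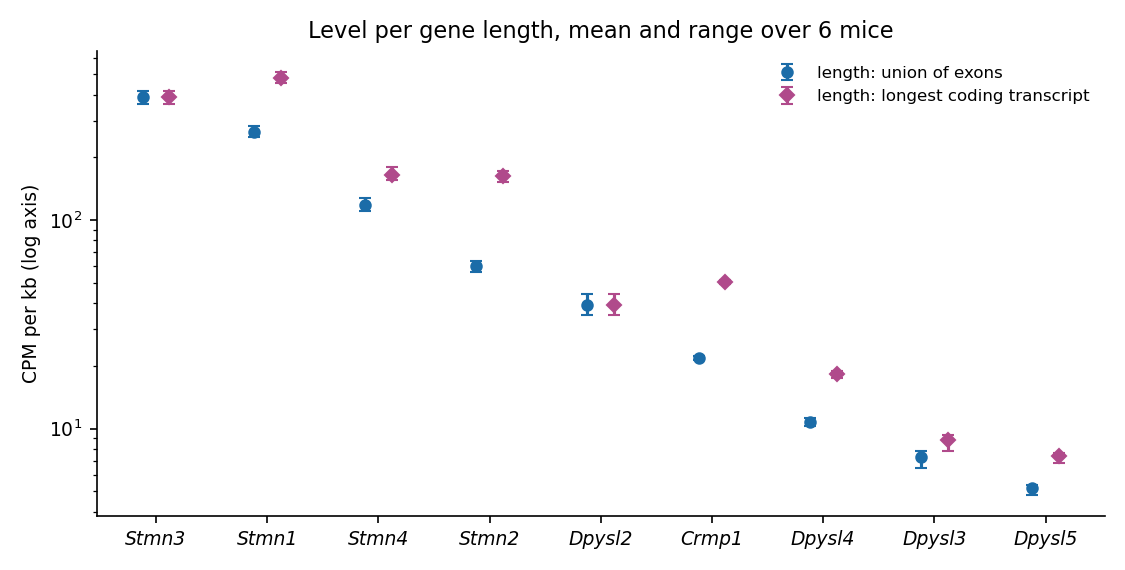
Level of each member in CPM per kb on a log axis, as the mean (symbols) and range (bars) over 6 brains, with 2 definitions of gene length. The 4 stathmins lie above the 5 CRMPs with both, and the ranks of Stmn3 and Stmn1 and of Dpysl2 and Crmp1 swap between them.

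Dpysl2 (ENSMUSG00000022048, chr14:66802864-66868688 on the minus strand of GRCm38) had 158.5, 162.2 and 165.9 CPM in control mice 2, 5 and 10. It had 189.7, 183.6 and 198.8 CPM in PLDP mice 17, 22 and 26. All 3 PLDP brains lay above all 3 control brains, and the lowest of them was above the highest control brain by more than the whole control range. The means were 162.2 ± 3.68 and 190.7 ± 7.63 CPM (SD, n = 3 each), a ratio of 1.18 and a log2 difference of 0.23 (standard error 0.04, 95% interval 0.14 to 0.32). The locus has 1 annotated coding transcript and no annotated gene overlaps it. At about 3745 counts per brain, counting alone would give a coefficient of variation of 1.63%, and that between the control brains was 2.27%.

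Dpysl2 was the 1 member called higher, at an unadjusted p under 0.05 in edgeR's quasi-likelihood test over all features, and 0 members were called lower. Of all 18580 features tested, 4.91% were called higher and 3.69% lower. At a Benjamini-Hochberg adjusted p under 0.05, 6 features (0.0323%) passed, and none of them was a member. Since this contrast chose the group, nothing is read from these counts. In the same brains a list of 8 hindbrain and spinal cord markers was lower on the PLDP diet, with sums of 75.5 to 112.9 CPM against 146.3 to 160.8 CPM, and the part of this in the Dpysl2 difference was not tested.

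Crmp1, which encodes CRMP1, a partner of CRMP2 in hetero-oligomers (ENSMUSG00000029121, chr5:37241940-37292133 on the plus strand), was the steadiest member. It had 155.1, 154.4 and 150.2 CPM in control mice 2, 5 and 10, and 151.8, 157.7 and 151.6 CPM in PLDP mice 17, 22 and 26. The values of the diets were interleaved. Its log2 difference was 0.005 (standard error 0.04, 95% interval -0.08 to 0.09), and its coefficient of variation over the 6 brains was 1.82%, close to the 1.75% that counting alone would give. As the ratio of Dpysl2 to Crmp1 CPM within a brain, the values were 1.02, 1.05 and 1.10 on the control diet and 1.25, 1.16 and 1.31 on the PLDP diet.

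Dpysl4, the gene of CRMP3 (ENSMUSG00000025478, chr7:139086001-139102704 on the plus strand), had 63.3, 61.8 and 64.7 CPM on the control diet and 67.0, 66.1 and 65.3 CPM in PLDP mice 17, 22 and 26. All PLDP values were above the control values, but the gap between 64.7 and 65.3 was small, and the log2 difference of 0.06 (standard error 0.05) had a 95% interval from -0.04 to 0.16. Dpysl5, the gene of CRMP5 (ENSMUSG00000029168, chr5:30711564-30799375 on the plus strand), was placed the other way. It had 39.6, 38.4 and 39.4 CPM on the control diet and 38.2, 35.6 and 38.2 CPM on the PLDP diet, a log2 difference of -0.07 (standard error 0.06, 95% interval -0.19 to 0.05). PLDP mouse 22 was the low one, and without it the log2 difference was -0.04. Its gap, between 38.4 and 38.2, was narrower than that of Dpysl4. The diets did not overlap in 3 of 9 members (Dpysl2, Dpysl4 and Dpysl5) and in 14.2% of all features tested, and since this contrast chose the group, nothing is read from that count.

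Dpysl3, the gene of CRMP4, which also binds actin (ENSMUSG00000024501, chr18:43320984-43438286 on the minus strand), varied most among the CRMPs other than Dpysl2. It had 50.1, 51.4 and 47.9 CPM in control mice 2, 5 and 10, and 42.9, 47.2 and 50.1 CPM in PLDP mice 17, 22 and 26. PLDP mice 17 and 22 were below every control mouse and PLDP mouse 26 was among them. The log2 difference was -0.09 (standard error 0.06, 95% interval -0.22 to 0.04). It was -0.14 without PLDP mouse 26 and -0.04 without PLDP mouse 17.

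The CRMP genes together had 466.5, 468.3 and 468.0 CPM on the control diet and 489.6, 490.2 and 504.0 CPM in PLDP mice 17, 22 and 26. The 4 CRMPs other than Dpysl2 summed to 305.4 ± 3.01 CPM on the control diet and 303.9 ± 3.56 CPM on the PLDP diet (SD, n = 3 each), with overlapping values. Dpysl2 thus held 34.7 ± 0.74% of the CRMP CPM on the control diet and 38.5 ± 1.01% on the PLDP diet (SD, n = 3 each). The difference of the family total lay in this 1 gene.

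Among the stathmins, no diet difference exceeded the spread between brains. Stmn1 (ENSMUSG00000028832, chr4:134468320-134473843 on the plus strand), found in many dividing and neuronal cells, had 506.1, 527.6 and 490.2 CPM in control mice 2, 5 and 10. It had 544.7, 483.2 and 508.4 CPM in PLDP mice 17, 22 and 26. PLDP mouse 17 was the highest and PLDP mouse 22 the lowest of all brains, and the log2 difference was 0.01 (standard error 0.04, 95% interval -0.08 to 0.11).

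Stmn4 (ENSMUSG00000022044, chr14:66344296-66361680 on the plus strand), which lies on the same chromosome as Dpysl2, had 221.2, 235.8 and 212.8 CPM on the control diet. It had 245.1, 220.3 and 215.7 CPM on the PLDP diet, again highest in PLDP mouse 17. Its log2 difference was 0.02 (standard error 0.05, 95% interval -0.08 to 0.13).

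Stmn2, the neuronal SCG10 gene (ENSMUSG00000027500, chr3:8509360-8561606 on the plus strand), had 356.8, 353.6 and 323.0 CPM on the control diet. It had 356.6, 316.6 and 323.3 CPM in PLDP mice 17, 22 and 26. Stmn3 (ENSMUSG00000027581, chr2:181306459-181314500 on the minus strand) had 465.6, 449.6 and 430.8 CPM on the control diet and 473.9, 410.4 and 418.1 CPM on the PLDP diet. For both genes PLDP mouse 17 was level with the highest control mouse, while PLDP mice 22 and 26 were near or below the lowest. The log2 differences were -0.05 for Stmn2 (standard error 0.05, 95% interval -0.16 to 0.05) and -0.05 for Stmn3 (standard error 0.05, 95% interval -0.15 to 0.06). Without PLDP mouse 17 they were -0.11 and -0.12, and without PLDP mouse 22 they were -0.02 and -0.01.

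**Figure D2:**
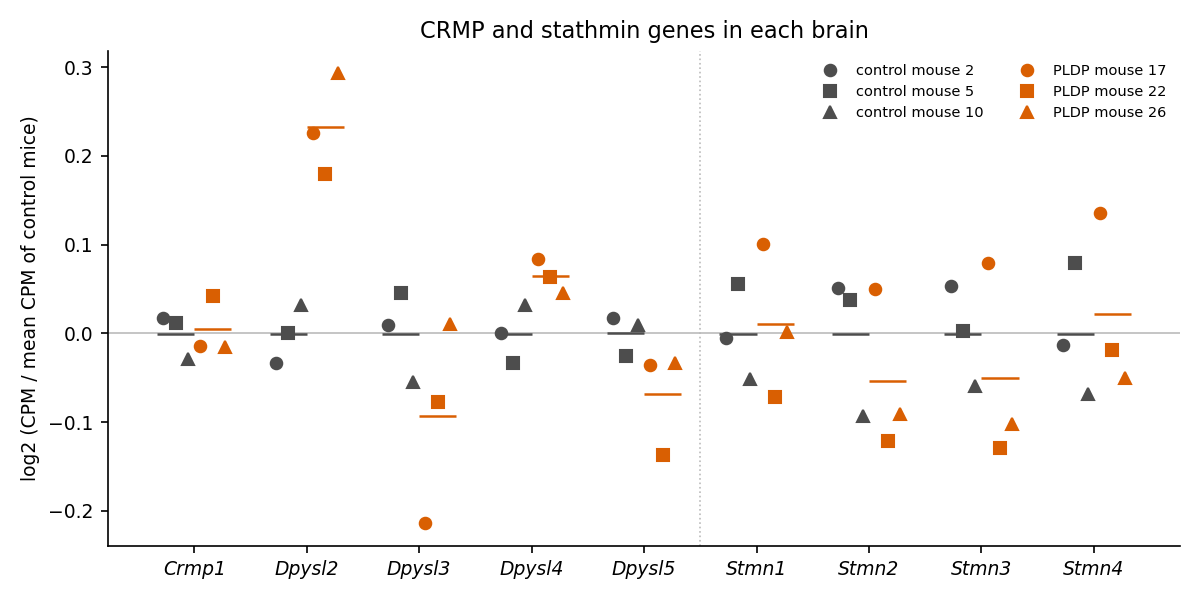
CPM of each member in each brain as log2 of its ratio to the control mean, with short lines at the mean of the log2 ratios of each diet (n = 3 mice each). Dpysl2 is above every control brain in all 3 PLDP mice, and PLDP mouse 17 (orange circles) is the highest PLDP brain for all 4 stathmins.

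Likeness between members from brain to brain was measured as the root mean square distance between the log2 CPM of 2 genes over the 6 brains, each centred on its own mean. The closest of all 36 pairs of members was Stmn2 with Stmn3, at 0.024, and the 6 stathmin pairs had distances from 0.024 to 0.058. Crmp1 and Dpysl4, at 0.049, fell within that range, and a pair of genes that vary little is close by this measure. Dpysl2 was at 0.096 from its nearest member, Dpysl4, and at 0.178 from Dpysl3, the widest of the pairs, which includes the diet difference that chose the group. The summed stathmin level was 1550, 1567 and 1457 CPM in control mice 2, 5 and 10 and 1620, 1431 and 1465 CPM in PLDP mice 17, 22 and 26. Within that sum Stmn1 held between 32.7% and 34.7% and Stmn4 between 14.3% and 15.4% in every brain. These are descriptions over 6 libraries, which also share their depth and scaling between genes.

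Of 4688 named genes with a mean of at least 50 CPM outside the group, the 5 whose pattern over the 6 brains was most like that of Dpysl2 were Col4a2, Nmnat2, Mast3, Kcnf1 and Zhx3. Their distances to Dpysl2 were between 0.017 and 0.037, and they are given as the closest by this search, which followed the values that had picked Dpysl2. Col4a2, a collagen of vascular basement membranes, at 0.017, had 50.6, 51.6 and 51.3 CPM on the control diet and 59.1, 57.1 and 62.0 CPM in PLDP mice 17, 22 and 26. Nmnat2, an axonal enzyme of NAD synthesis, had 133.2, 134.3 and 133.2 CPM on the control diet and 151.9, 146.6 and 160.7 CPM on the PLDP diet.

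The genes that the CRMPs and stathmins work with were read from 6 lists of partners, which do not enter the rule for the members. Of 104 genes written, 103 were matched and 101 were tested (Kif2c was too low to pass the filter, and Map2k7 had 0 counts in every mouse). At an unadjusted p under 0.05, 3 partner genes (2.97%) were higher in PLDP mice, against 4.91% of all features, and 5 (4.95%) were lower, against 3.69%. After adjustment over all features tested, 0 passed, and the smallest adjusted p in edgeR's quasi-likelihood test was 0.350. The median log2 difference was 0.011 over the partner genes and -0.001 over all features. The count of higher genes depended on PLDP mouse 17, and without it 17 partner genes were higher and 2 lower. The calls over all features also rose without this mouse, from 913 to 1293 higher and from 685 to 1072 lower. Leaving out control mouse 2 gave 1 and 1, leaving out control mouse 10 gave 5 and 4, leaving out control mouse 5 gave 2 and 3, and leaving out PLDP mouse 26 gave 2 and 2.

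Tubulins are the substrate of both families. Of 13 tested, 0 were called in either direction, and their log2 differences were between -0.08 and 0.09. Tuba1a, the tubulin with the highest CPM, had 837.2 ± 42.8 CPM on the control diet and 824.4 ± 40.8 on the PLDP diet (SD, n = 3 each). In the semaphorin 3 list, which holds the ligands, their neuropilin and plexin receptors and the kinases Fyn and Fes, 0 of 16 genes were called, with a median log2 difference of 0.033. Fyn, the one with the highest CPM, had 126.7 ± 0.71 and 127.6 ± 4.66 CPM (SD, n = 3 each). In the list of growth cone and cargo partners 0 of 13 were called. Kif5a, a heavy chain of the kinesin that carries CRMP2 cargo, had 2407 ± 73.6 and 2399 ± 75.9 CPM (SD, n = 3 each).

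Among 17 microtubule-associated proteins, 2 were called higher and 0 lower, with a median log2 difference of 0.034. Map1a had 1083, 1086 and 1087 CPM on the control diet and 1126, 1145 and 1185 CPM in PLDP mice 17, 22 and 26. The PLDP brains were all above the control brains, by a log2 difference of 0.09 (SE 0.03, edgeR quasi-likelihood adjusted p = 0.457). Mtcl1, a microtubule crosslinker, had a log2 difference of 0.13 (SE 0.05, edgeR adjusted p = 0.515) and overlapping values. It was 0.06 and no longer called without control mouse 5. Each of these genes lost its call in 3 of 6 leave-one-out fits.

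Among 20 genes of microtubule ends, severing and tubulin modification, 2 were called lower and 0 higher. Svbp, the partner of the vasohibins that remove tyrosine from tubulin, had 9.73 ± 0.81 CPM on the control diet and 8.04 ± 0.85 on the PLDP diet (SD, n = 3 each), a log2 difference of -0.27 (SE 0.11, edgeR quasi-likelihood adjusted p = 0.503), and it lost its call in DESeq2 and in 3 of 6 leave-one-out fits. Spast, which encodes the severing enzyme spastin, had 58.6, 57.8 and 59.0 CPM on the control diet and 51.4, 55.2 and 56.1 CPM in PLDP mice 17, 22 and 26. Its log2 difference was -0.11 (SE 0.05, edgeR adjusted p = 0.572), and its call was lost in 7 of the 13 alternative fits. Mapre2, an end-binding protein and the highest of the list, had 268.3 ± 3.62 and 266.3 ± 5.23 CPM (SD, n = 3 each).

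The kinases and the phosphatase that act on CRMPs and stathmins held 22 tested genes, of which 1 was called higher and 3 lower, with a median log2 difference of 0. Camk2a, the kinase with the highest CPM, had 1555, 1552 and 1566 CPM on the control diet and 1615, 1716 and 1687 CPM in PLDP mice 17, 22 and 26. All PLDP values were higher, by a log2 difference of 0.10 (SE 0.03, edgeR quasi-likelihood adjusted p = 0.350). Prkacb, a catalytic subunit of protein kinase A, had 379.8, 388.9 and 380.0 CPM on the control diet and 341.5, 365.5 and 357.5 CPM on the PLDP diet, a log2 difference of -0.11 (SE 0.04, edgeR adjusted p = 0.421).

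Mapk9, the JNK2 gene, had 242.1 ± 2.91 CPM on the control diet and 226.9 ± 7.61 on the PLDP diet (SD, n = 3 each), a log2 difference of -0.09 (SE 0.04, edgeR quasi-likelihood adjusted p = 0.517), and kept its call in 2 of 6 leave-one-out fits. Camk2a and Prkacb kept theirs in all 6. Ppp2cb, a catalytic subunit of protein phosphatase 2A, was the other gene called lower and was named after its values were seen. It had 125.1 ± 2.74 and 117.0 ± 2.07 CPM (SD, n = 3 each).

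**Figure D3:**
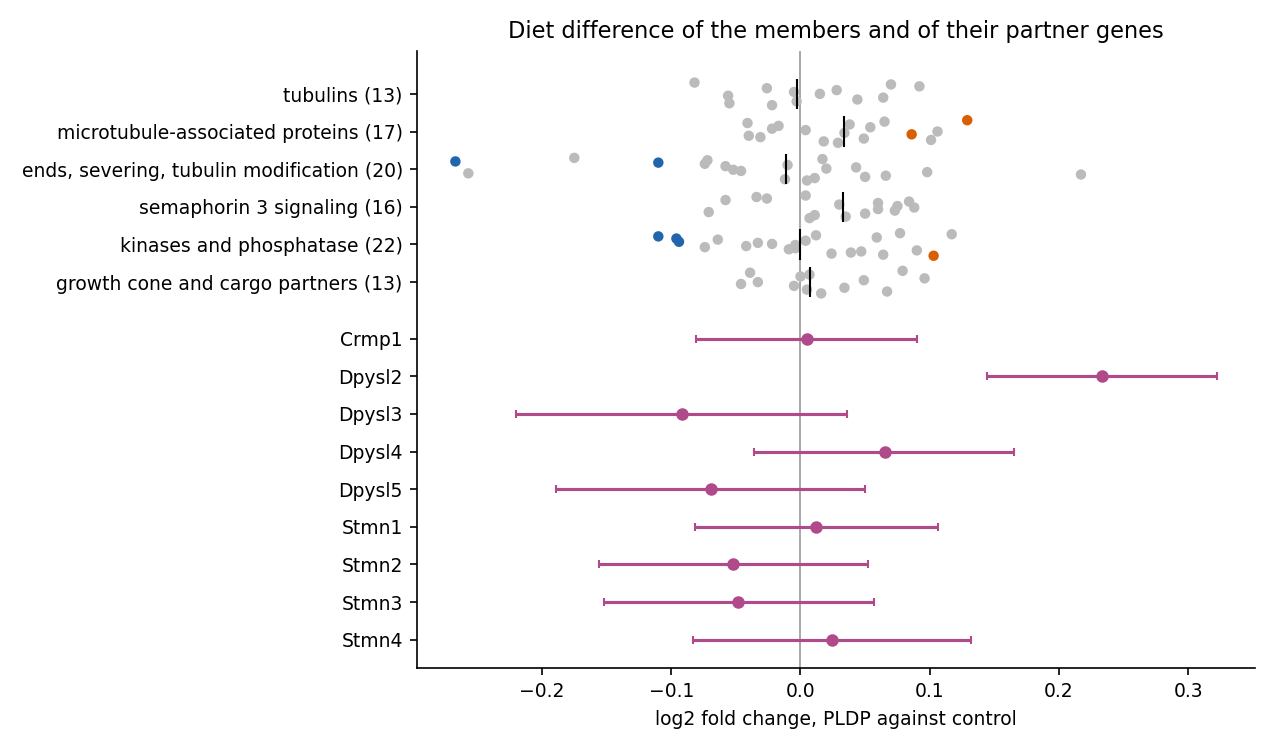
Log2 fold change of PLDP against control for the 9 members (pink points with 95% intervals) and for each tested gene of the 6 partner lists (number of genes in parentheses, black lines at list medians, orange points for genes called higher, blue for genes called lower, grey for the rest). Among the members, the log2 differences lie between -0.09 (Dpysl3) and 0.23 (Dpysl2).

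Markers of cell types and regions were read in the same brains. At the threshold of these calls, an unadjusted p under 0.05 in edgeR's quasi-likelihood test, 4.91% of all features were higher and 3.69% lower. Mature neuron markers (Snap25, Syt1, Rbfox3, Eno2, Nefl and Nefm) summed to 5075 to 5247 CPM on the control diet and 5082 to 5205 CPM on the PLDP diet, so the libraries held abundant neuronal RNA at a like level, with 1 of 6 markers called lower. Markers of immature neurons, which express Stmn1, Dpysl3 and Dpysl5 strongly during development, summed to 170.4 to 183.4 and 173.2 to 193.3 CPM. Of 7 markers, 2 (Sox11 and Eomes) were called higher, and Eomes overlapped between the diets. The log2 differences of 3 were below 0: Dcx (-0.04), Igfbpl1 (-0.19) and Cd24a (-0.15). Oligodendrocyte markers summed to 5122 to 5501 CPM on the control diet and 4765 to 5387 CPM on the PLDP diet, with 2 of 7 called lower. For astrocytes the sums were 3661 to 3747 and 3667 to 3763 CPM with 1 of 6 lower. For microglia they were 207.6 to 217.8 and 199.5 to 210.2 CPM with 1 of 5 lower. For endothelium they were 155.9 to 164.8 and 158.7 to 174.5 CPM with 2 of 5 higher, while Slco1a4 had a log2 difference of -0.14. Every one of these markers had counts in every mouse.

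The summed levels of both lists of regional markers did not overlap between the diets. Hindbrain and spinal cord markers summed to 160.8, 146.3 and 147.0 CPM on the control diet and 112.9, 75.5 and 105.3 CPM in PLDP mice 17, 22 and 26, and 8 of 8 were called lower, 7 of them without overlap. Hoxb8 had between 2.95 and 4.71 CPM on the control diet, 1.81 CPM in PLDP mouse 17 and no counts in PLDP mice 22 and 26. Markers of forebrain projection neurons summed to 1090 to 1142 CPM on the control diet and 1149 to 1201 CPM on the PLDP diet, with 2 of 7 (Neurod2 and Fezf2) called higher without overlap and 0 lower. The other 5 overlapped between the diets, among them Slc17a7, which made up most of the sum, and Neurod6 had a log2 difference of -0.05. The part of this list in the Dpysl2 difference was not tested either.

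**Figure D4:**
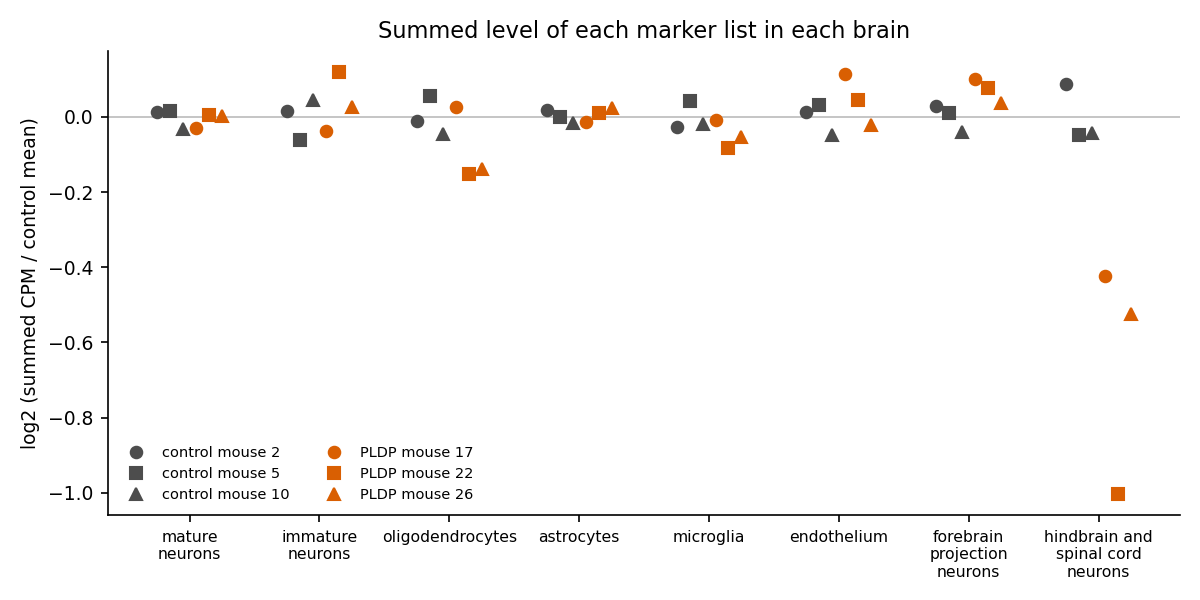
Summed CPM of each marker list in each brain as log2 of its ratio to the control mean. The hindbrain and spinal cord list is lower in all 3 PLDP mice than in every control mouse, and the mature neuron, astrocyte and microglial lists overlap between the diets.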

How the data were processed

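Polyadenylated RNA of 6 whole brains was sequenced as stranded paired reads of 150 bases. The deposited values are raw read counts per feature, 1 file per mouse. The submitters' processing notes name cutadapt 2.9, HISAT2 2.2.0, featureCounts 2.6.0 and DESeq2 1.6.3, and the builds GRCh38 and GRCm38 without a role. The strand setting, annotation and treatment of shared reads are not given in the sources used here. Of 60354 features, 55034 had Ensembl identifiers and 54777 were found in GENCODE M21 (GRCm38), which gave symbols, positions and sequences. The other 5320 are numbered and carry no position, and whether they take reads from annotated genes was not tested. Counts do not separate isoforms.

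Features were filtered with filterByExpr (minimum count 10, minimum total 15), scaled by TMM and fitted with edgeR 4.0.16 (R 4.3.3, quasi-likelihood test, diet as the factor, 3 against 3 mice). Calls were made at unadjusted p values under 0.05, and p values were adjusted over all 18580 features by the Benjamini-Hochberg method. CPM used TMM-scaled totals. TMM factors were between 0.997 and 1.01. Protein alignments used mafft 7.526. The scripts were tested on simulated data. Alternatives were no filter, 10 counts in every mouse, other scalings, DESeq2 1.42.0, limma voom 3.58.1 and leaving out each mouse. In each partner list, the gene with the highest CPM and up to 3 called genes with the smallest p were named. Tubb3 was not analysed here. The members and lists were chosen with earlier results of these data known.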

Additional observations from a re-analysis of the deposited data

How the results depend on the processing

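In all, 35 results were compared with another filter, scaling, length or tool. Of these 200 comparisons, 185 stayed within a set tolerance, and so did 177 of 210 with 1 mouse left out. For counts of called genes the tolerance was a fixed ratio, so 913 features called higher in the main fit and 1314 with no filter counted as alike. For members it was the spread between mice, so a call could change within it. Only for partner genes did it mean an unchanged sign and call. The members called lower ranged from 0 to 2 with 1 mouse left out: Stmn2 and Stmn3 without PLDP mouse 17, and Dpysl3 without PLDP mouse 26, which is a count only, since this contrast chose the group. Partner genes called higher ranged from 1 to 17 and those called lower from 1 to 5, and DESeq2 called 2 lower. Over all features, DESeq2 called 564 higher and 362 lower, and no filter gave 1314 higher and 1046 lower. Leaving out 1 mouse gave 640 to 1293 higher and 493 to 1072 lower. Per kilobase of the longest coding transcript, levels were 50.3 for Crmp1, 8.81 for Dpysl3, 18.2 for Dpysl4, 7.36 for Dpysl5, 481 for Stmn1, 163 for Stmn2 and 165 for Stmn4 CPM per kb, since that length is shorter than the exon union. With 1 mouse left out, the log2 difference of Tuba1a ranged from -0.064 to 0.016, that of Fyn from -0.021 to 0.034 and that of Kif5a from -0.031 to 0.02, so none of these has a direction. Among the members, those of Crmp1 (-0.016 to 0.015), Stmn1 (-0.035 to 0.05) and Stmn4 (-0.034 to 0.065) also turned. For the changes not explained by the length, the cause was not tested. No paired analysis was possible because the mice of the diets share no numbers. At 715 to 849 counts, counting error limits Dpysl5 most.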
